A study of Homo sapiens with 4 samples.

Results

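The calcium/calmodulin-dependent protein kinase II (CAMK2) family was followed in human induced neurons at the levels of gene, transcript, first exon and internal exon. Its members were selected by gene symbol: CAMK2A, CAMK2B, CAMK2D and CAMK2G, 4 of the 77973 genes in the deposited tables. All 4 had reads in at least 3 of the 4 libraries. CAMK2B also carried a first exon that the reference annotation does not hold, and this exon is described in detail.

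The neurons came from one engineered line made from KOLF2.1J, an established line of human induced pluripotent stem cells. In every group the cells carried a doxycycline-driven NGN2 transgene, induced with doxycycline at 2 µg/mL, and a constitutive dCas9-BFP-KRAB construct for CRISPR interference, and were puromycin-selected pools after lentiviral delivery of a guide RNA. The control library had a non-targeting guide. The knockdown library had a guide against TDP-43, an RNA-binding protein that keeps unannotated (cryptic) exons out of messenger RNA. The azacytidine library had the non-targeting guide and 5 µM 5-azacytidine, a cytidine analogue that inhibits DNA methylation, for 72 hours. The fourth library had the TDP-43 guide and the same 5-azacytidine treatment. Harvest was on day 12 or day 15 per the labels, and which day applied to a library is not given there. Polyadenylated RNA was read as long PacBio molecules (Iso-Seq) after first-strand synthesis with the MarathonRT reverse transcriptase. Each group had 1 library, so no difference has a replicate check, and every p-value compares the reads of 2 libraries, not the conditions.

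CAMK2 is a serine/threonine kinase that assembles into a ring of many subunits. Each subunit has a catalytic domain, a regulatory segment that calcium-bound calmodulin displaces, a variable linker built from alternative exons, and a hub (association) domain through which subunits assemble. CAMK2A and CAMK2B are the forms enriched in the brain, where they act at glutamatergic synapses in plasticity, and the beta subunit binds actin through its linker. CAMK2D and CAMK2G are expressed in many tissues, and CAMK2D is the main form in the heart.

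The exon at which the hub domain begins is shown first, because the unannotated CAMK2B first exon is joined to it. It has 76 bases in each gene and is given in transcript orientation (minus strand of hg38 in all 4 genes). In GENCODE 29 it is entirely coding in 2 of 3 CAMK2A and 11 of 14 CAMK2B transcripts that hold it. The same holds for 12 of 12 CAMK2D and 9 of 11 CAMK2G transcripts. Capitals mark the 48 bases that are identical in all 4 genes.
CAMK2A, chr5:150231305-150231380: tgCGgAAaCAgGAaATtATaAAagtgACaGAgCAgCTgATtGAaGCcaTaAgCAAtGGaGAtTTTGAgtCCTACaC
CAMK2B, chr7:44220826-44220901: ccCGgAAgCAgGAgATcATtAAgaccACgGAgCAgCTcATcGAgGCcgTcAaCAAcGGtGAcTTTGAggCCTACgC
CAMK2D, chr4:113465529-113465604: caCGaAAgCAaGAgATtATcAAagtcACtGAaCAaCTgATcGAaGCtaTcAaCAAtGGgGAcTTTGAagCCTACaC
CAMK2G, chr10:73817479-73817554: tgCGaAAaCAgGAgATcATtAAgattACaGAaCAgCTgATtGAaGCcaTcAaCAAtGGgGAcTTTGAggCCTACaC
Pairwise identity over the 76 bases ran from 71.1% (CAMK2A and CAMK2B) to 82.9% (CAMK2A and CAMK2G).

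The libraries held 466337 to 767621 reads assigned to genes, and 58.5% to 68.1% of these were placed on a transcript. TARDBP, the gene of TDP-43, counted 104 reads for the control, 72 for the knockdown, 73 for the azacytidine and 43 for the combined library. Its reads were fewer in both libraries labelled as knockdowns, with log2 ratios of -0.67 (adjusted exact binomial p = 0.0213) and -0.73 (adjusted exact p = 0.0738). Neither met both thresholds of a call, an adjusted p under 0.05 and an absolute log2 ratio of at least 1. All 15 neuronal markers had reads in every library, with summed levels of 3011 to 3902 CPM (reads per 1000000 of the effective library size, computed from the reads). Summed proliferation markers were 1165 and 1107 CPM in the libraries without azacytidine and 113 and 103 in those with it. Neural progenitor markers were 818 and 737 against 168 and 130, and astrocyte markers 119 and 105 against 10.1 and 0. Most of the progenitor sum without azacytidine was PAX6, at 468, 456, 6.08 and 8.26 CPM in control, knockdown, azacytidine and combined libraries. NES, at 103, 77.2, 72.9 and 86.7 CPM in that order, was not lower with azacytidine in the presence of the knockdown. HES5 and FABP7 had at most 4 reads in any library. Of the astrocyte markers AQP4 was at 0 in every library, and SLC1A3 had 29, 24, 0 and 0 reads and GJA1 43, 39, 4 and 0. ALDH1L1, S100B and GFAP had at most 8 reads in any library, and ALDH1L1 was at 0 in the control too. The summed proliferation, progenitor and astrocyte levels move with azacytidine beside every azacytidine difference below, and their part in those differences was not tested. In such bulk samples, fewer cells of a type and less RNA per cell cannot be told apart.

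Reads from the unannotated CAMK2B first exon were found in both libraries with the TDP-43 guide and in neither library without it. CAMK2B encodes the beta subunit and lies on the minus strand of chromosome 7 (chr7:44210019-44334577, hg38). The unannotated exon (chr7:44222117-44224233) has 2117 bases, overlaps no annotated CAMK2B exon, and lies inside annotated introns of 4861 to 19805 bases. Its transcript has 5 exons and 4869 bases. An intron of 1215 bases joins the first exon to the 76-base hub exon shown above, which is exon 17 of 20 in the annotated transcript CAMK2B-201, and the annotated splice sites after it are kept. The unannotated start is 101191 bases downstream of the CAMK2B-201 start, and its transcript overlaps 401 of the 1551 coding bases of CAMK2B-201 (25.9%), those of the hub end. The coding bases of the kinase domain and the linker lie upstream of it. No genome was read here, so the sequence of this exon and of its splice site is not shown.

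**Figure D1:**
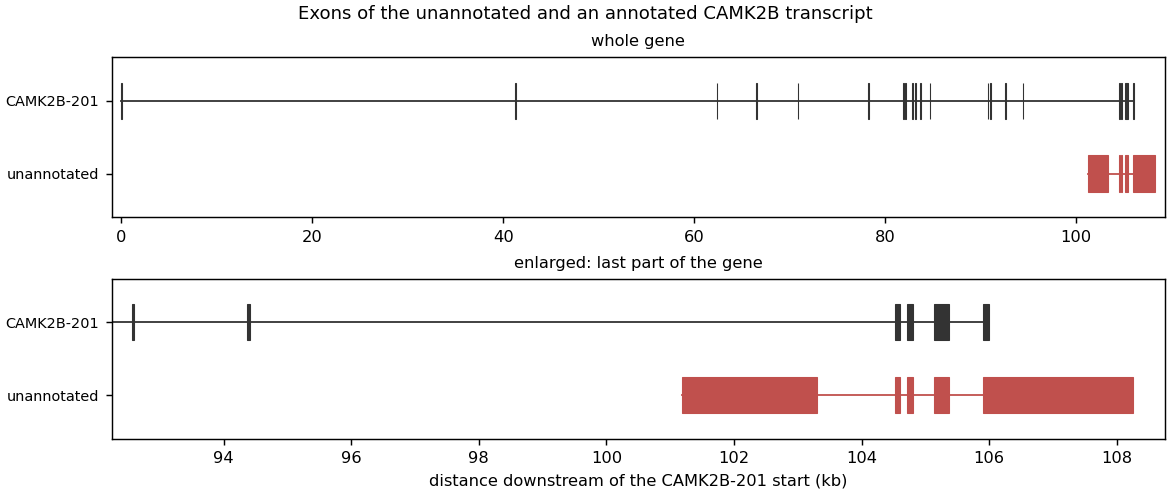
Exons (boxes) and introns (lines) of the annotated transcript CAMK2B-201 and of the unannotated CAMK2B transcript, drawn to scale against the distance in kb downstream of the CAMK2B-201 start, for the whole gene (top) and its last part (bottom). The unannotated first exon of 2117 bases begins 101191 bases downstream and precedes exons shared with CAMK2B-201.

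The control library had 0 of 28 CAMK2B transcript reads with the unannotated exon, a count that allows a share of up to 10.7%. The knockdown library had 11 of 25, or 44.0% (95% Wilson interval 26.7 to 62.9%). The azacytidine library had 0 of 42, which allows up to 7.14%, and the library with both treatments had 13 of 45, or 28.9% (17.7 to 43.4%). The intervals of the libraries with and without the TDP-43 guide did not overlap. The share was higher by 44.0 percentage points without azacytidine (Fisher's exact test, adjusted p = 0.0012 over 164 unannotated loci) and by 28.9 points with it (adjusted exact p = 0.00175). The gene models that hold this exon are pooled over all libraries. It reached the minimum reads for a test only through the libraries with the TDP-43 guide. The exon was thus not chosen independently of the reads tested, and the p-values do not allow for this. The same limit applies to every test of this exon or its transcript below. Of all tested loci, 7.93% and 6.71% were called higher in the knockdown pairs without and with azacytidine, and 4.88% in both, CAMK2B among them. Called lower in these pairs were 2.44% and 1.22% of loci. Azacytidine made no called difference (1.83% higher and 1.22% lower without the TDP-43 guide, 6.71% and 1.83% with it). With the TDP-43 guide present the difference was -15.1 points (adjusted exact p = 0.694), and without it both shares were 0.

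In read numbers scaled to library size, the unannotated exon was at least 3.31-fold higher with the knockdown alone and at least 4.41-fold higher with azacytidine, taking 3 reads as the limit for a count of 0. Uniquely assigned reads were 0 of 13, 8 of 16, 0 of 25 and 8 of 27 in control, knockdown, azacytidine and combined libraries, in that order. Full-length reads were 0 of 8, 7 of 11, 0 of 11 and 6 of 12 in the same order. Both stricter kinds of read are parts of the reads counted above. Their 0 in the libraries without the TDP-43 guide was therefore fixed and is no separate check. With unique reads the differences were 50.0 and 29.6 points, but the adjusted exact p-values were 0.0682 and 0.0907 and the calls were lost. YKT6, on the opposite strand, overlaps the far end of the CAMK2B span (48, 48, 56 and 63 reads) and ends at base 44214294, outside the unannotated transcript, which spans 44217177 to 44224233.

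Most other CAMK2B transcripts began in a cluster of annotated first exons (chr7:44325357-44325656). It held 27 of 28 transcript reads in the control, 13 of 25 in the knockdown, 38 of 42 in the azacytidine and 32 of 45 in the combined library. The share fell by 44.4 points with the knockdown (Fisher's exact test, adjusted p = 0.00516), and with unique reads the difference was -50.0 points and not called (adjusted exact p = 0.127). With azacytidine the knockdown difference was -19.4 points and was not called (adjusted exact p = 0.278). Counts as deposited gave a call (-21.7 points, adjusted exact p = 0.00538), but they enter each read 2 times, which makes that p-value too small. The reads themselves were also fewer in the knockdown, since 13 against 27 gave a log2 ratio of -1.17 (95% interval -2.28 to -0.20, exact binomial p = 0.0164, unadjusted and chosen after the values were seen). With azacytidine this ratio was -0.22 (-0.95 to 0.50), an interval that includes no difference. CAMK2B reads on no transcript were likewise fewer with the knockdown alone, 13 against 28 (log2 ratio -1.23). The lower count was thus not particular to this cluster. The 5 annotated first-exon clusters with too few reads to test had between 0 and 2 reads in any library. Of the 4 CAMK2 first-exon clusters tested, 1 was called higher and 1 lower in the pair without azacytidine, against 4.1% and 3.95% of 6323 clusters. Both are CAMK2B clusters that share the same transcript reads, so a higher share of 1 lowers the other and these calls are not separate results. In the pair with azacytidine 1 was called higher (2.18% of clusters) and 0 lower (2.21%). For azacytidine 0 were called in either pair (3.12% higher and 3.13% lower without the knockdown, 4.21% and 4.29% with it). For the knockdown, the unannotated start was called higher in both pairs (0.253% of clusters) and 0 clusters lower (0.253%), and for azacytidine 0 were called in both (0.474% and 0.664%).

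**Figure D2:**
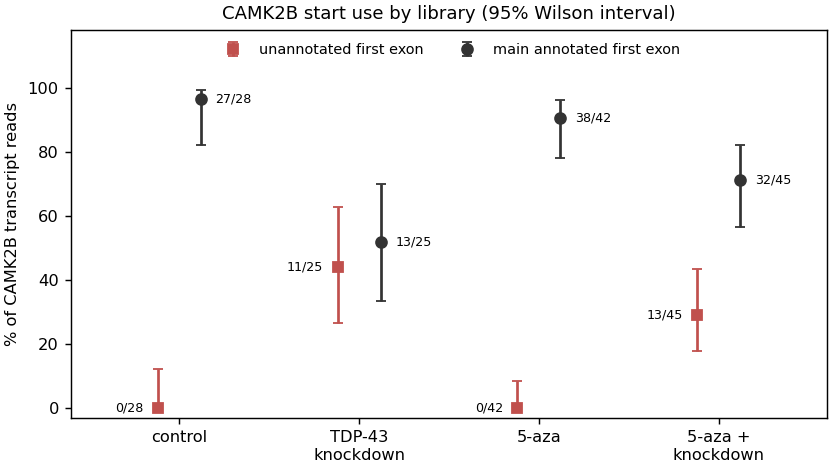
Share of CAMK2B transcript reads (y axis, %) that begin in the unannotated first exon (squares) or the main annotated first-exon cluster (circles) in each library, with 95% Wilson intervals and read numbers beside the points. The unannotated exon is at 0 of 28 and 0 of 42 in the libraries without the TDP-43 guide, and at 11 of 25 and 13 of 45 in those with it.

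At the gene level CAMK2B was highest in the azacytidine libraries. It had 56 reads in the control, 38 in the knockdown, 68 in the azacytidine and 74 in the combined library. In CPM these were 90.4 (exact 95% counting interval 68.3 to 117), 55.4 (39.2 to 76.0), 138 (107 to 175) and 153 (120 to 192). In order of rising level, neighbouring libraries had overlapping intervals. The knockdown library overlapped neither library with azacytidine, and the control did not overlap the combined library. CAMK2B rose with azacytidine in the presence of the knockdown, by a log2 ratio of 1.45 (0.88 to 2.07, adjusted exact binomial p = 2.77e-06). This call was lost with uniquely assigned counts (1.16, adjusted exact p = 0.0646) and with full-length counts (0.24, adjusted exact p = 1.0). Without the knockdown the azacytidine ratio was 0.61 (0.08 to 1.15, adjusted exact p = 0.0891). The knockdown ratios were -0.70 (-1.34 to -0.09, adjusted exact p = 0.113) and 0.15 (-0.35 to 0.65), and neither was called. With uniquely assigned counts the ratio without azacytidine was 0.18 in place of -0.70, so its direction depends on the table.

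CAMK2A, the alpha subunit of mature forebrain neurons, was the member with the fewest reads. The gene (chr5:150219491-150290093) had 7 reads in the control, 19 in the knockdown, 3 in the azacytidine and 0 in the combined library. The knockdown library had the most reads, and its interval (16.7 to 43.2 CPM) overlapped those of the control (4.54 to 23.3) and the azacytidine library (1.25 to 17.8) but not that of the combined library (0 to 7.61). The knockdown ratio without azacytidine was 1.23 on the log2 scale (-0.02 to 2.79, adjusted exact binomial p = 0.187). It was called higher with counts as deposited (1.26, adjusted exact p = 0.0132). These are 2 per read, which makes that p-value too small. With azacytidine both libraries were at or under 3 reads and no ratio is given. In the presence of the knockdown, CAMK2A fell with azacytidine, from 19 reads to 0, at least 4.47-fold (adjusted exact p = 0.000408). The gene met the minimum mean of 5 reads for a test only through the knockdown library, and the p-value does not allow for this.

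CAMK2A also had an unannotated transcript. It had 3 of the 17 CAMK2A transcript reads of the knockdown library (17.6%), 2 of them full-length, and none of 7 in the control or 3 in the azacytidine library. Its first exon (chr5:150228055-150229835, 1781 bases) overlaps an annotated exon, and the transcript keeps the last exons of the gene, as the unannotated CAMK2B transcript does. Its depth was under the minimum for a test, and 0 of 7 reads in the control allows a share of up to 42.9%.

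By gene reads, CAMK2D, the delta subunit, was higher with the knockdown in both backgrounds and lower with azacytidine in both. The gene (chr4:113418054-113761927) had 137 reads in the control, 251 in the knockdown, 37 in the azacytidine and 106 in the combined library. In CPM these were 221 (186 to 261), 366 (322 to 414), 75.0 (52.8 to 103) and 219 (179 to 265). The knockdown library was the highest and the azacytidine library the lowest, each without overlap, while the control and combined libraries did not differ beyond counting error. The knockdown ratio was 0.72 without azacytidine (0.42 to 1.04, adjusted exact binomial p = 4.97e-05), under the log2 threshold of 1. With azacytidine it was 1.53 (0.99 to 2.13, adjusted exact p = 2.86e-07) and was called. Reads on transcripts went the other way in that pair, from 35 to 5, as described below. The azacytidine ratio was -1.55 without the knockdown (-2.13 to -1.03, adjusted exact p = 1.75e-08), also called, though not with reads on transcripts (-0.30, adjusted exact p = 0.711), and -0.74 with it (-1.08 to -0.41, adjusted exact p = 5.31e-05). Muscle markers were read beside CAMK2D, since muscle expresses it: TTN had 189, 652, 226 and 97 reads in control, knockdown, azacytidine and combined libraries, in that order, and MYH7, MYH3, DES, ACTC1 and MYOG each had 0 to 6. The summed muscle level, nearly all from TTN, was 319, 962, 464 and 217 CPM, highest in the knockdown library as CAMK2D was. In the azacytidine library it was above the control, whereas CAMK2D was lowest there, and the muscle sum was lowest in the combined library. Its part in the CAMK2D levels was not tested.

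CAMK2G, the gamma subunit, stayed within a narrow range. The gene (chr10:73812501-73874591) had 89 reads in the control, 93 in the knockdown, 80 in the azacytidine and 96 in the combined library, and its levels were 144, 135, 162 and 198 CPM in the same order. All 4 counting intervals overlapped. The largest ratio was 0.55 for azacytidine in the presence of the knockdown (0.12 to 0.98, adjusted exact binomial p = 0.0313), under the log2 threshold. The knockdown ratios were -0.08 (-0.52 to 0.35) and 0.29 (-0.15 to 0.74).

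Of the 4 genes, 0 were called with the knockdown alone, against 5.95% of 13789 genes called higher and 2.57% lower. With azacytidine present, 1 was called higher with the knockdown (CAMK2D) and 0 lower, against 3.7% and 3.27% of genes. For azacytidine alone, 1 was called lower (CAMK2D) and 0 higher, against 9.94% and 6.58%. For azacytidine in the presence of the knockdown, 1 was called higher (CAMK2B) and 1 lower (CAMK2A), against 9.14% and 16.3%. Called in the same direction in both pairs were 0 members, against 0.471% of genes higher and 0.305% lower for the knockdown and 2.48% and 6.13% for azacytidine. Whether the knockdown ratio differed between the backgrounds was tested by an exact conditional test, added after the values were seen. The adjusted exact p-values were 0.251 for CAMK2A, 0.222 for CAMK2B, 0.102 for CAMK2D and 0.649 for CAMK2G, so no difference between backgrounds was called, against 6.91% of genes.

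**Figure D3:**
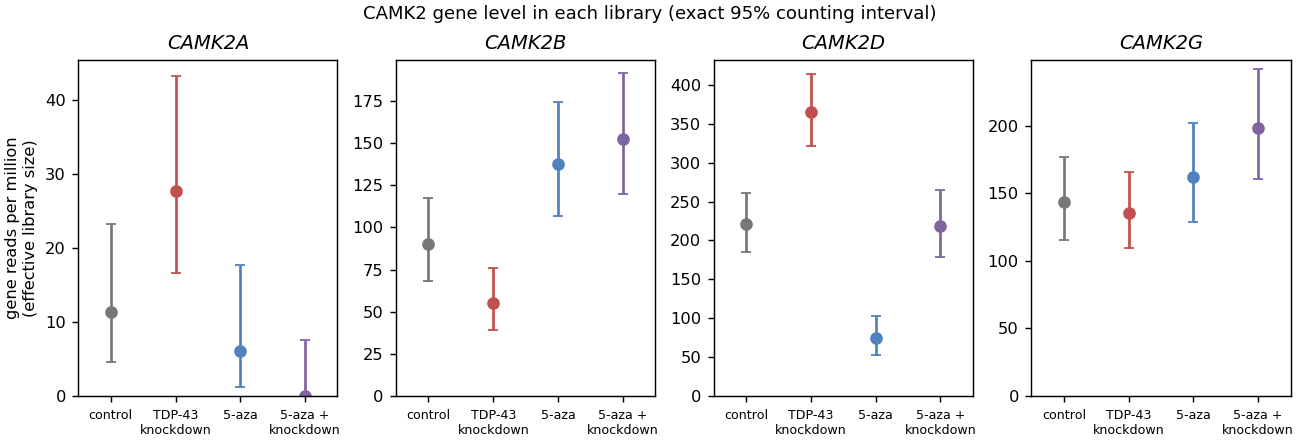
Gene level of the 4 CAMK2 genes in each library, in CPM of the effective library size, with exact 95% counting intervals and an axis per gene. CAMK2D runs from 75.0 in the azacytidine to 366 in the knockdown library, while the 4 intervals of CAMK2G overlap.

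For each gene, the 3 genes with the most similar profile over the 4 libraries were taken among 8145 genes, by the root mean square difference of centred log2 levels. For CAMK2A they were EPHA3 (30, 78, 14 and 2 reads in control, knockdown, azacytidine and combined libraries, in that order), BORA and SLC13A3. For CAMK2B they were ADRM1 (29, 19, 35 and 37 reads), TSPAN17 and SUMF2, with differences of 0.022 to 0.035. For CAMK2D they were MEGF11 (22, 40, 5 and 16 reads), PKD2 and CARMIL1. For CAMK2G they were NARF (75, 81, 69 and 82 reads), TBC1D13 and CYFIP2. With 4 libraries many genes share a profile, and the measure describes these libraries alone.

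The share of gene reads placed on a transcript had called differences in CAMK2D alone among the 3 members deep enough to test. Transcripts held 50 of 137 gene reads in the control (36.5%), 74 of 251 in the knockdown (29.5%), 35 of 37 in the azacytidine (94.6%) and 5 of 106 in the combined library (4.72%). The reads on no transcript numbered 87, 177, 2 and 101. They were thus almost missing with azacytidine alone and made up nearly all CAMK2D reads in the combined library. The share fell by 89.9 points with the knockdown in the presence of azacytidine (Fisher's exact test, adjusted p = 1.16e-21), against 4.96% of 8143 genes called lower. It rose by 58.1 points with azacytidine alone (adjusted exact p = 1.72e-08), against 4.68% called higher, and fell by 24.8 points with azacytidine in the presence of the knockdown (adjusted exact p = 3.5e-06), against 3.43%. The median over all 8143 genes ran from 65.9% to 74.5%. For CAMK2B the shares were 50.0%, 65.8%, 61.8% and 60.8%, and for CAMK2G 75.3%, 73.1%, 82.5% and 72.9%, with no call for either.

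The direction of the CAMK2D knockdown difference with azacytidine therefore depended on the table. Gene reads rose from 37 to 106, while reads on transcripts went from 35 to 5, and summed transcript counts gave a log2 ratio of -2.53 (adjusted exact binomial p = 0.0009), called lower. What the reads on no transcript hold was not analysed here. This measure was examined after the gene and transcript values had been seen.

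**Figure D4:**
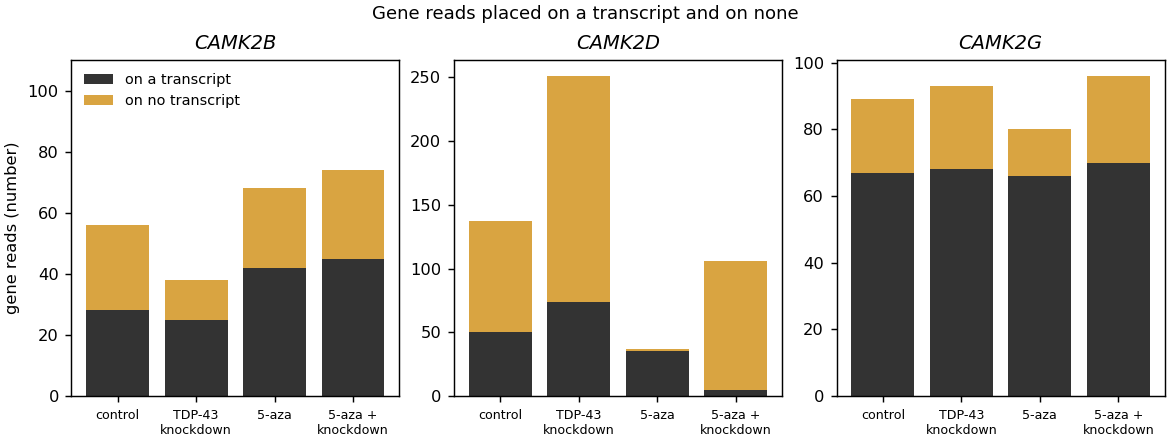
Number of gene reads placed on a transcript (dark) and on none (light) for CAMK2B, CAMK2D and CAMK2G in each library, with an axis per gene. CAMK2D has 2 of 37 reads on no transcript in the azacytidine library and 101 of 106 in the combined library.

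Alternative exons of CAMK2D that lie in the kinase domain and in the linker follow, since their shares differed between libraries. A pair of mutually exclusive 73-base exons of the kinase domain (chr4:113548657-113548729 and chr4:113547644-113547716) is shown with capitals at the 23 bases that differ.
CAMK2D major exon: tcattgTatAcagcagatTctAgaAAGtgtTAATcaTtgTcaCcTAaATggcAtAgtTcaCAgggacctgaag
CAMK2D alternative exon: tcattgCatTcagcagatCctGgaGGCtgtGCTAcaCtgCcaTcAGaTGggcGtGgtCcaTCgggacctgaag
CAMK2D linker exon of 42 bases (chr4:113502936-113502977): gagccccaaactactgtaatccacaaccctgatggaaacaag
CAMK2G linker exon of 63 bases (chr10:73839539-73839601): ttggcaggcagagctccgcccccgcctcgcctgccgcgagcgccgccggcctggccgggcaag
The 2 linker exons have no capitals because they are not compared base by base.

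The major 73-base exon was in 43 of 50 spanning reads in the control, 73 of 73 in the knockdown, 29 of 33 in the azacytidine and 5 of 5 in the combined library. The alternative exon made up the rest, with 7, 0, 4 and 0 reads. It was thus read only in the libraries without the TDP-43 guide, although the 5 reads of the combined library would allow a share of up to 60.0%. Few of the reads with the alternative exon were assigned to 1 transcript alone: uniquely assigned reads held it in 1 of 9 reads in the control, 0 of 26 in the knockdown, 1 of 10 in the azacytidine and 0 of 2 in the combined library, and full-length reads in none. Inclusion of the major exon rose by 14.0 points with the knockdown (Fisher's exact test, adjusted p = 0.0257), and the difference of 12.1 points with azacytidine was not called. Both exons met the minimum of 10 reads on the rarer side only through the libraries without the TDP-43 guide. These exons were thus not chosen independently of the reads tested, and the p-value does not allow for this. The 42-base linker exon was in 21 of 50 reads in the control, 23 of 74 in the knockdown, 26 of 32 in the azacytidine and 1 of 5 in the combined library. It rose by 39.2 points with azacytidine alone (adjusted exact p = 0.0122) and was highest there. In the presence of the knockdown the azacytidine difference was -11.1 points on 5 reads, and was not called. With unique reads the exon was in 2 of 9, 6 of 26, 9 of 9 and 1 of 2 reads, and that difference was then 26.9 points. A 96-base CAMK2D exon near the end of the gene (chr4:113455726-113455821) was in 4 of 47, 4 of 74, 3 of 28 and 0 of 5 reads, with no call.

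The use of whole CAMK2D transcripts also differed. Their reads are those behind the exon shares above, and a higher share of 1 transcript lowers the others. These calls are therefore not separate results. ENST00000394524.7 had 3 of 50 transcript reads in the control, 34 of 74 in the knockdown, 5 of 35 in the azacytidine and 1 of 5 in the combined library. Its share rose by 39.9 points with the knockdown (Fisher's exact test, adjusted p = 4.77e-05), and its uniquely assigned reads were 0, 13, 0 and 0. ENST00000699417.1 had 9, 0, 1 and 1 reads and fell by 18.0 points with the knockdown (adjusted exact p = 0.00456), though none of its reads were unique. It met that minimum only through the control library, and the p-value does not allow for this either. ENST00000296402.9 had 14, 12, 0 and 1 reads and fell by 28.0 points with azacytidine alone (adjusted exact p = 0.00798). ENST00000699374.1 had 9, 19, 16 and 1 reads and was not called in any pair. None of the CAMK2D transcripts was called in both pairs of a treatment, and the combined library had 5 CAMK2D transcript reads in all.

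In CAMK2G the 63-base linker exon varied. It was in 18 of 67 spanning reads in the control, 15 of 68 in the knockdown, 28 of 66 in the azacytidine and 8 of 68 in the combined library. Inclusion was highest with azacytidine alone, and fell by 30.7 points when the knockdown was added (Fisher's exact test, adjusted p = 0.00418). With unique reads the difference was -30.7 points and not called (adjusted exact p = 0.141). Without azacytidine the knockdown difference was -4.8 points (adjusted exact p = 0.996). The transcript ENST00000322635.7 had 3, 3, 11 and 0 reads and fell by 16.7 points in the same pair (adjusted exact p = 0.00788), a call lost with unique reads (-16.0 points, adjusted exact p = 0.389). It met the minimum of 10 reads in total only through the azacytidine library, and the p-value does not allow for this. This transcript includes the 63-base exon, so the 2 calls share reads and are not separate results. The other CAMK2G exons tested had no call: a 33-base linker exon (chr10:73828089-73828121) was in 36.8 to 43.9% of reads, a 69-base exon in 66.7 to 76.5% and a 114-base exon in 30.9 to 42.4%. The remaining 5 CAMK2G transcripts tested held between 2 and 23 reads a library and were not called.

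The CAMK2B linker exons were not called in any pair after halving the counts. A run of 3 consecutive linker exons, of 114, 129 and 129 bases (chr7:44226516-44229501), was in the same reads: 6 of 28 in the control, 0 of 14 in the knockdown, 9 of 42 in the azacytidine and 7 of 32 in the combined library. The knockdown library alone had none, and 0 of 14 reads allows a share of up to 21.4%, equal to that of the control. With counts as deposited the 3 exons were called higher for azacytidine in the presence of the knockdown (22.2 points, adjusted exact p = 0.0458). Those counts enter each read 2 times, which makes their p-values too small, here and for the transcript that follows. The transcript ENST00000395749.7 held 6, 0, 9 and 7 reads, in the same order, and was called with counts as deposited only, lower with the knockdown alone (adjusted exact p = 0.00632) and higher with azacytidine in the presence of the knockdown (adjusted exact p = 0.0156). A 45-base exon (chr7:44232822-44232866) was in 22 of 28, 8 of 14, 28 of 42 and 19 of 32 reads. A 75-base exon (chr7:44239589-44239663) was in 10 of 28, 2 of 14, 15 of 42 and 8 of 32. Reads of the unannotated transcript start downstream of all these exons and do not count among them. ENST00000258682.10 (CAMK2B-201) held 12 of 28, 6 of 25, 13 of 42 and 11 of 45 transcript reads, and ENST00000358707.7 4, 6, 13 and 9, with no call.

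**Figure D5:**
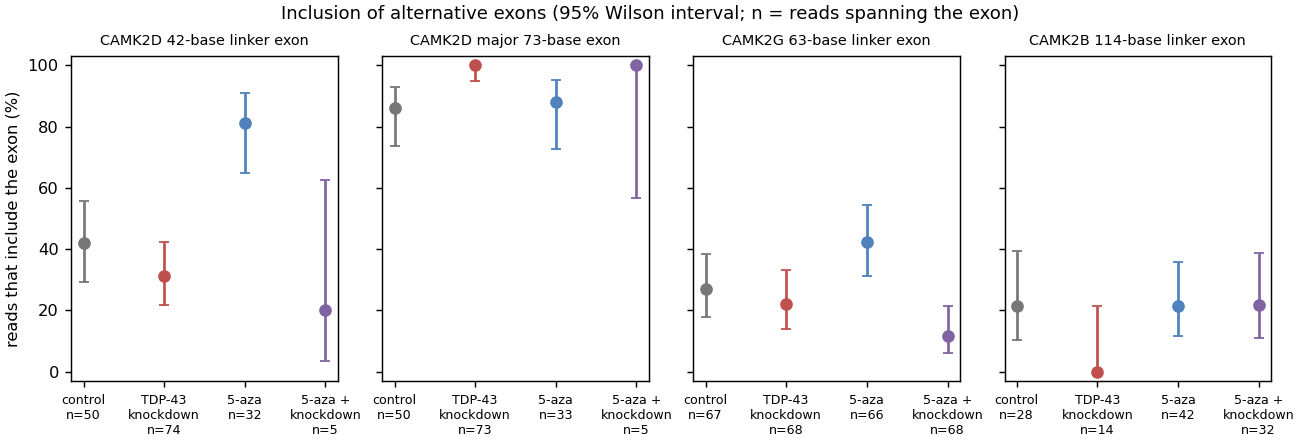
Share of spanning reads that include an exon (y axis, %) in each library for 4 alternative exons of CAMK2D, CAMK2G and CAMK2B, with 95% Wilson intervals and the number of spanning reads under each point. The 42-base CAMK2D exon is at 26 of 32 reads in the azacytidine library, against 21 of 50 in the control.

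Of the 14 CAMK2 transcripts tested, 2 were called higher and 1 lower with the knockdown alone, against 3.53% and 3.47% of 15226 transcripts. With azacytidine present, 1 was called higher and 1 lower with the knockdown (2.34% and 2.17%). Azacytidine alone had 0 higher (2.7%) and 1 lower (3.2%), and azacytidine in the presence of the knockdown had 0 called (3.57% higher and 3.78% lower). Of the 13 internal exons tested, 1 was called higher and 1 lower with the knockdown alone, against 3.5% and 2.82% of 4890 exons, and these 2 are the alternatives of 1 choice. With azacytidine present 1 was lower with the knockdown (1.57%), azacytidine alone had 1 higher (4.21%), and the remaining pair had 0 (4.89% higher and 3.27% lower). The unannotated CAMK2B transcript was the 1 transcript of these genes called in both pairs of a treatment, against 0.374% of transcripts called higher in both knockdown pairs.

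Genes that act with CAMK2 were described from a list of 101, of which 90 had a mean of at least 5 reads. With the knockdown alone 8 rose and 1 fell (8.89% and 1.11%, against 5.95% and 2.57% of all genes), with a median log2 ratio of 0.21 against 0.13 over all genes. With azacytidine present 10 rose and 6 fell with the knockdown (11.1% and 6.67%, against 3.7% and 3.27%; medians 0.13 and 0.03). For azacytidine alone 8 rose and 14 fell (8.89% and 15.6%, against 6.58% and 9.94%; medians 0.05 and 0.06), and in the presence of the knockdown 19 rose and 18 fell (21.1% and 20%, against 9.14% and 16.3%; medians -0.21 and -0.09). The gene SHANK1, a postsynaptic scaffold, was the list member called in the same direction in both knockdown pairs, with 21 and 69 reads and, with azacytidine, 23 and 48.

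CALM2 and CALM3 are genes of calmodulin, which activates the kinase. CALM2 had 86 reads in the control, 74 in the knockdown, 139 in the azacytidine and 39 in the combined library. It was lowest in the combined library and fell there with the knockdown, with a log2 ratio of -1.79 (adjusted exact binomial p = 1.27e-11). CALM2 rose with azacytidine alone. CALM3 had 75, 88, 131 and 126 reads and rose with azacytidine in both pairs. GAP43, a growth-cone protein that binds calmodulin, rose with azacytidine in the presence of the knockdown (126 to 191). CAMK2N1, an inhibitor that binds the kinase domain, had 17, 15, 26 and 2 reads and fell with the knockdown in the presence of azacytidine, with a log2 ratio of -3.38. Of 11 other calmodulin-dependent kinases and related genes tested, 0 were called in either knockdown pair, where 5.95% and 3.7% of all genes were higher and 2.57% and 3.27% lower. For azacytidine in the presence of the knockdown 4 rose and 2 fell (9.14% and 16.3% of all genes). CASK, a synaptic scaffold with a kinase-like domain, fell there (333 to 106 reads), as did DAPK1 (144 to 48), and CAMK1, PNCK, CAMKK1 and DAPK3 rose. Of 14 phosphatases PPP2R1A alone fell with the knockdown, with azacytidine present (75 and 36 reads, 3.27% of all genes lower).

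Among the 18 receptors and scaffolds tested, 4 rose and 1 fell with the knockdown alone (5.95% and 2.57% of all genes). DLG1, a synaptic scaffold, had 19, 180, 3 and 14 reads, and rose by a log2 ratio of 3.06. The AMPA receptor subunit gene GRIA1, whose protein CAMK2 phosphorylates, had 36, 87, 14 and 1 reads, rose with the knockdown alone (1.11) and fell with it in the presence of azacytidine (-3.25). It also fell with azacytidine in the presence of the knockdown (-5.36). ACTN2 fell with the knockdown alone, from 43 to 13 reads. SHANK2 rose with the knockdown in the presence of azacytidine, from 13 to 61 reads, and so did ACTN1, from 24 to 95. With azacytidine, GRIA4 (113 to 28 and 198 to 60 reads) and DLG1 fell in both pairs, ACTN1 (161 to 24) and ACTN2 (43 to 3) fell in the pair without the knockdown, and DLG4, the postsynaptic scaffold PSD-95, rose in the pair with it (170 to 243).

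Of the 17 calcium channel and release genes tested, 3 rose with the knockdown alone (5.95% of all genes), among them CACNA1D (8 to 38 reads) and CACNA1H (41 to 95). With azacytidine present 4 rose with it (3.7%), among them the release channel gene RYR2 (6 to 58), CACNA1B (93 to 208) and CACNA1A (26 to 83). With azacytidine, CACNB1 rose and CACNB2 fell in both pairs, RYR2 fell without the knockdown (76 to 6), and CACNA1B (101 to 208) and CACNB3 (63 to 110) rose with it. Among substrates, HDAC5, a histone deacetylase, rose with azacytidine in both pairs (61 to 120 and 119 to 212 reads), as did SYN3 (25 to 54 and 38 to 64). MAP2, a dendritic microtubule protein, fell with azacytidine in the presence of the knockdown (761 to 162).

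Of the 16 splicing factors listed, RBFOX3 rose with azacytidine in both pairs (35 to 90 and 39 to 131 reads) and MBNL2 fell in both (58 to 18 and 78 to 12). RBFOX1 fell with azacytidine alone (134 to 41) and rose when the knockdown was added (41 to 117). PTBP2 rose with the knockdown alone (196 to 453) and fell with azacytidine in its presence (453 to 120). HNRNPA1 fell with the knockdown in the presence of azacytidine (96 to 43 reads). HNRNPA1 and CALM2 have near-identical processed copies in the genome, so their counts are uncertain. Whether any of these levels bears on the CAMK2 exon shares was not tested.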

How the data were processed

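Transcripts were measured in 4 libraries, 1 per group, with groups taken from the treatment label. Per the submitters' processing notes the build was hg38. Column names of the deposited tables name minimap2, and Bambu, which finds unannotated transcripts and assigns reads, is named as source in the deposited gene models. Their versions and settings are not given in the sources used here. The authors deposited estimated counts per gene and per transcript (ambiguous reads are split between transcripts), estimated full-length counts, and counts of uniquely assigned reads. The deposited CPM values had the gene-table sum as denominator and were used for that check alone. All deposited gene counts lay within 0.00031 of an even number, and 0 unique counts were odd, so counts were divided by 2 and called reads, although the tests had been designed for either case. Why values are even is not stated.

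The 4 members, the 101-gene list, the marker lists and the tests were chosen with earlier results of these data known. For gene levels, pairs of libraries were compared over the 13789 genes averaging at least 5 reads. The test was exact, binomial and two-sided, with TMM effective library sizes (edgeR 4.0.16) and Benjamini-Hochberg adjustment over all of them. A call needed an adjusted p under 0.05 and an absolute log2 ratio (pseudocount 0.5) of at least 1. Shares of unannotated exon loci (164), transcripts (15226), first-exon clusters (6323) and internal exons (4890) were tested with Fisher's exact test, two-sided, on reads rounded to whole numbers. The minimums were 10 reads for the feature in total (for an internal exon, on its rarer side) and a mean of 20 transcript reads for the gene (for an internal exon, of spanning reads), and a call needed an adjusted p under 0.05 and 10 percentage points. Overlapping first exons of a gene were merged into a cluster. An internal exon was compared over the reads of transcripts that span it. The share of gene reads on transcripts was compared in the same way over 8143 genes with a mean of at least 20 gene reads. This share, the exact conditional test between backgrounds and the tests of CAMK2B reads by first exon were added after the values were seen. Scripts were tested on simulated counts.

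Intervals are 95% (Wilson for shares, exact for counts and ratios), a count of 0 has a limit of 3 reads, and both cover counting error only, because amplification makes reads dependent. Named were the members, their transcripts, starts and exons past the minimums, up to 6 listed genes per direction and pair by adjusted p, and the 3 most similar genes (mean of at least 20 reads, log2 of 1 plus the level in CPM of the effective library size). SHANK1 and the genes called in both pairs of a treatment were named as well. The muscle, astrocyte and neural progenitor markers singled out were chosen after their values were seen. Alternatives were total reads, DESeq2 1.42.0 size factors, other filters and pseudocounts, counts as deposited, unique, transcript and full-length tables, additive models in edgeR and DESeq2, and a call by adjusted p alone. All 47 versioned CAMK2 transcripts shared with GENCODE 29 had the same exons. Exon sequences came from the GENCODE 29 transcripts. Gene symbols were matched for 60555 of 77186 annotated identifiers. The genome sequence and repeats were not used here. A listed gene that the rule would name is not reported here.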

Additional observations from a re-analysis of the deposited data

Results flagged for a closer look

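In CAMK2D, 4 results had opposite directions in the pairs of a treatment, and none of these differences between pairs was tested. The share of gene reads on transcripts was 58.1 points higher with azacytidine alone, and the difference was -24.8 points in the presence of the knockdown. Inclusion of the 42-base linker exon differed by 39.2 points with azacytidine alone and by -11.1 points in the presence of the knockdown, and with unique reads the latter was 26.9 points, so the directions were then the same. The share of ENST00000296402.9 differed by -28.0 points with azacytidine alone and by 3.78 points in the presence of the knockdown. The share of ENST00000699417.1 differed by -18.0 points with the knockdown alone and by 17.1 points with azacytidine present. In each case except the first, the combined library rested on 5 CAMK2D transcript reads. In the first, it had 5 such reads among 106 gene reads. With 1 library per group no sample could be compared with others of its group.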

How the results depend on the processing

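No paired analysis was possible because the groups share 1 replicate number, so no block of replicates exists, and with 1 library per group none was left out. The additive models below compare each treatment across both levels of the other. The unannotated CAMK2B exon had 0 reads in both libraries without the TDP-43 guide in every kind of count. No alternative could therefore turn its direction, and only the size and the call could change. With unique reads the differences were 50.0 and 29.6 points (adjusted exact p = 0.0682 and 0.0907), no longer called. With full-length reads, too few to enter the adjusted test, they were 63.6 and 50.0 points (unadjusted exact p = 0.0128 and 0.0137). The CAMK2D means of both pairs passed by adjusted p alone (1.13 for the knockdown, -1.14 for azacytidine).

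Directions of gene levels depended on the table. With unique, transcript and full-length counts the mean knockdown log2 ratio over both pairs was 0.27, 0.0026 and 0.46 for CAMK2B (-0.28 with gene counts) and -0.35, -1.03 and -0.24 for CAMK2D. For CAMK2D with azacytidine present it was -2.07, -2.53 and -1.11 in place of 1.53, and the azacytidine ratio without the knockdown was 0.46 with unique counts in place of -1.55. For CAMK2B without azacytidine it was 0.18 (unique) and 0.51 (full-length) in place of -0.70. For CAMK2G the mean was -0.038 with total reads, -0.073 with unique and -0.10 with full-length counts, against 0.10, and the pairs were 0.070 without and -0.26 with azacytidine by full-length counts. The cause was not tested, beyond the CAMK2D reads on no transcript given above.

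Of 52 internal exon differences, 7 turned sign with unique and 11 with full-length counts, none of them called, most on reads too few to enter the test. Among shares deep enough to test with unique counts, those that turned were, in CAMK2B, ENST00000258682.10 (-0.23 points, azacytidine with knockdown). In CAMK2G they were the main start (-0.44 with and -0.43 without azacytidine, and -1.42 with counts as deposited), the exons of 114 (0.38), 69 (0.61) and 33 bases (0.28 and 0.19), ENST00000322635.7 (0.43), ENST00000351293.7 (-1.73 and -0.49) and ENST00000394762.7 (-0.65). The share of gene reads on transcripts changed sign for CAMK2D with the knockdown alone (3.79, unique), for CAMK2G (2.79, unique, and 0.74, full-length) and for CAMK2B (0.040, full-length). These last alternatives were chosen after seeing the data. In CAMK2D that share with full-length counts was 11.1, -14.3 and -2.5 points, and with unique counts -8.47 for azacytidine with the knockdown, and these calls were lost.

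Counts as deposited, which are 2 per read, added 18 calls among the CAMK2 genes and their features. Tests on them enter each read 2 times, so their p-values are too small and the added calls are not further evidence. The count of genes called in both knockdown pairs, 107, was 319 with counts as deposited, 14 with unique, 11 with transcript and 5 with full-length counts, 273 by adjusted p alone, 10 by the additive DESeq2 model and 0 by the additive edgeR model (1104 of 13783 genes at an unadjusted p under 0.05). Neither additive model called a CAMK2 gene for either treatment (CAMK2A was not judged for the knockdown, nor by DESeq2 for azacytidine). For azacytidine the count of 1187 was 1788, 279, 579 and 44 with the same tables and 203 with DESeq2. Called features over the 4 pairs were 5 to 17 loci, 686 to 1118 transcripts, 278 to 537 starts and 152 to 399 exons, and with unique counts 0 to 3, 35 to 101, 15 to 54 and 1 to 49. With full-length counts they were 1 to 3, 4 to 21, 0 to 11 and 0 to 7, and with counts as deposited 27 to 55, 2358 to 3250, 1017 to 1434 and 635 to 1058. Under total reads the median log2 ratio of all genes with the knockdown alone was -0.09 in place of 0.13, with 53.8% lower among called genes in place of 30.2%, and with azacytidine in the presence of the knockdown 0.09 in place of -0.09, with 52.3% lower in place of 64.1%. Depth limits CAMK2A (0 to 19 reads) and CAMK2D in the combined library (5 transcript reads).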
